A study of Mus musculus with 12 samples.

Results

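The 10 genes described here encode the transcription factor NRF2 (Nfe2l2) and 9 enzymes or transporters of the antioxidant and ferroptosis defence: Hmox1, Nqo1, Gclc, Gclm, Slc7a11, Txnrd1, Gpx4, Sod2 and Cat. They were taken as the rows of the gene count table that carry these symbols. All 10 were found among 56748 rows, and 9 of them passed the filter on low counts. Slc7a11 did not pass it and was described but not tested.

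The samples were 12 left ventricles of wild-type C57BL/6J mice, 3 groups of 4 in 1 labelled batch, from which messenger RNA was selected by its poly(A) tail and sequenced. Every mouse, the controls included, had been injected in the tail vein with AAV9, an adeno-associated virus that transduces heart muscle well. The first group carried the AAV9 control vector and had sham surgery, the second carried the control vector and had myocardial infarction (MI) by ligation of the left anterior descending coronary artery, and the third carried AAV9-Irx3 and had the same infarction. Irx3 is an Iroquois homeobox gene whose product binds DNA. Tissue was taken 14 days after surgery. No group with AAV9-Irx3 and sham surgery was analysed here, so the effect of the vector was read in infarcted hearts alone. The promoter of the vector is not given in the sources used here, and the counts do not separate vector Irx3 from mouse Irx3.

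Libraries held 13352604 to 19236721 counts. Irx3 itself had a normalised read count of 20.5 to 25.9 CPM (the usual scaled count that corrects for library size and composition) in the sham libraries, 16.8 to 30.5 in the infarcted libraries with control vector and 285 to 513 with AAV9-Irx3. The labels name the cell type as cardiomyocytes, but the RNA came from left ventricle tissue and markers of other cells were present. The summed level of 12 cardiomyocyte markers was 111085 to 127081 CPM in the sham libraries, 28354 to 70575 CPM after infarction with control vector and 34279 to 65193 CPM with AAV9-Irx3. That of 12 fibroblast markers was 2190 to 2645 CPM, 15184 to 41563 CPM and 4958 to 26568 CPM in the same order. That of 16 macrophage and monocyte markers was 442 to 563 CPM, 1443 to 3429 CPM and 958 to 2438 CPM. Fewer cells of a type and less RNA per cell cannot be told apart in bulk tissue. Mitochondrially encoded RNA made up 4.50% to 8.22% of counts in the sham libraries, 0.926% to 5.64% after infarction with control vector and 10.4% to 19.01% with AAV9-Irx3.

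NRF2 is held at a low level by KEAP1, which delivers it to a CUL3 ubiquitin ligase. When oxidants or electrophiles modify KEAP1, NRF2 accumulates, pairs with a small MAF protein and binds antioxidant response elements near its target genes, among them Hmox1, Nqo1, Gclc, Gclm, Slc7a11 and Txnrd1. Ferroptosis is an iron-dependent cell death driven by peroxidation of membrane lipids. Cystine taken up by SLC7A11 feeds glutathione synthesis, and GPX4 uses glutathione to reduce lipid peroxides. SOD2 and catalase remove superoxide in mitochondria and hydrogen peroxide in peroxisomes, and their genes are less specific to NRF2.

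The antioxidant response element holds the core TGACNNNGC, and promoter stretches are shown for the 3 genes in which it was found. Promoter windows of 300 bases, 250 before to 50 after an annotated start, came from RefSeq on build GRCm38.p6. They matched 8 of the 10 genes with 13 windows. Hmox1 and Gclc had no entry. The core, searched on both strands, was in 3 of the 13 windows, 1 each of Nfe2l2, Gclm and Txnrd1. Over all 32851 windows it was in 12.4%. Counted by gene, it was in 3 of the 8 genes with an entry, beside 14% of all 27025 genes with one. A gene can have more than 1 window, and elements outside the windows were not searched. The related AP-1 motif TGACTCA, which can overlap the core, was in none of the 13 and in 5.2% of all windows. A match is a run of letters and not a measured binding site. Each stretch below is 100 bases long, lies before the start and reads on the strand of its gene, with the core in capitals. The Nfe2l2 stretch is chr2:75704814-75704913 on the minus strand, the Gclm stretch chr3:122245373-122245472 on the plus strand and the Txnrd1 stretch chr10:82859064-82859163 on the plus strand.
Nfe2l2: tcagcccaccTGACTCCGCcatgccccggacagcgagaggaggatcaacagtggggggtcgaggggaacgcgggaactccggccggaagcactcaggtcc
Gclm: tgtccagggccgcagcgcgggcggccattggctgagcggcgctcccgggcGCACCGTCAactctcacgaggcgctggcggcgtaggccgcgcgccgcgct
Txnrd1: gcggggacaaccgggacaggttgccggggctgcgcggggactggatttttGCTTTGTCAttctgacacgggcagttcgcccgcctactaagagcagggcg

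Txnrd1 and Gpx4 were the 2 of the 10 genes whose coding sequence held a TGA codon in frame before its end, the codon that these enzymes read as selenocysteine at the active site. The coding sequences were those of GENCODE M21. The codon was number 612 of 613 in Txnrd1 and number 129 of 253 in Gpx4. It is shown in capitals with the coding bases around it.
Txnrd1: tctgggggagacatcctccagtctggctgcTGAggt
Gpx4: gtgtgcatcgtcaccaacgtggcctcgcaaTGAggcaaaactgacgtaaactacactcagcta

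Levels of different genes were compared per kilobase of their longest transcript. In the sham hearts Gpx4 was the highest of the 10 on this scale, at 504 ± 44.7 CPM per kb (SD, n = 4). Cat followed at 129 ± 7.20 CPM per kb and Sod2 at 105 ± 5.63 CPM per kb, and the libraries of these 3 genes did not overlap. Nfe2l2, at 30.6 ± 2.35 CPM per kb, Txnrd1, at 23.5 ± 2.69, and Nqo1, at 21.3 ± 1.03, came next. Neighbours in that order differed by less than the spread between libraries from Txnrd1 down to Hmox1, which stood at 19.8 ± 10.1 CPM per kb. Gclc and Gclm, the catalytic and modifier subunits of the enzyme that starts glutathione synthesis, overlapped at 5.52 ± 0.793 and 4.66 ± 0.618 CPM per kb. Slc7a11 was near the limit of detection.

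**Figure D1:**
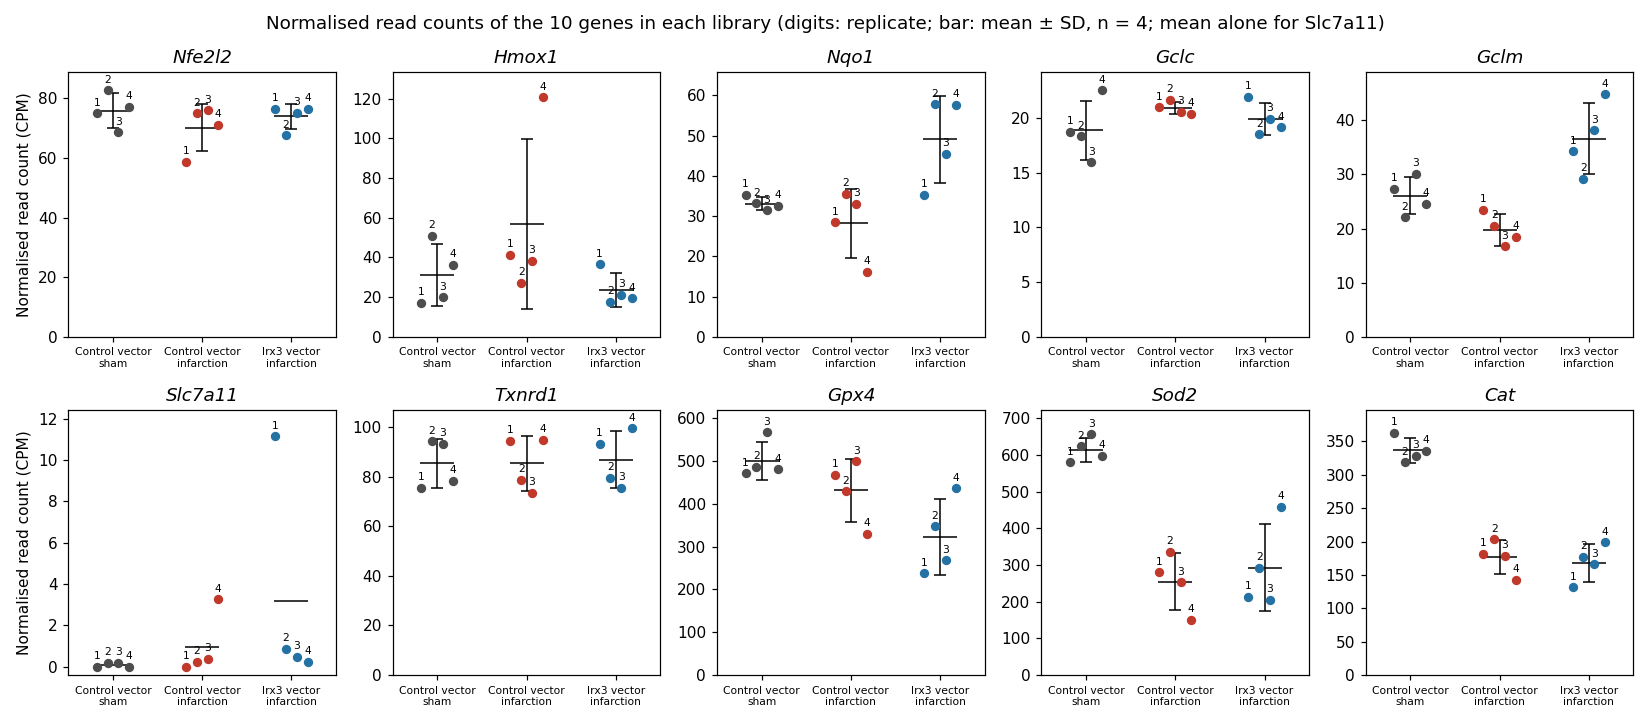
Normalised read counts (CPM, linear axis) of the 10 genes in each of the 12 libraries, by group. Points are libraries with their replicate number, the line is the mean and the error bars are SD (n = 4), left out for Slc7a11. Sod2 and Cat lay below every sham library in all 8 infarcted hearts, and Slc7a11 rose above 1 CPM in only 2 libraries, at 3.25 and 11.2 CPM.

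The first comparison asked how the genes stood 14 days after infarction when both groups carried the control vector. Sod2, the mitochondrial superoxide dismutase, and Cat, which encodes catalase, fell by 1.27 and 0.93 on the log2 scale, and Gclm was slightly lower, by 0.40. No gene of the 10 was called higher. The tested genes counted 3 lower and 0 higher of 9 at an adjusted p under 0.05 (edgeR quasi-likelihood test, Benjamini-Hochberg over 15742 genes). Over all genes tested 26.3% were called higher and 22.4% lower. The median log2 fold change of the 9 was -0.22, against 0.01 over all genes.

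Sod2 had 580.1, 623, 656 and 598 CPM in the sham libraries 1 to 4 and 280.4, 337, 253 and 150.1 CPM in the infarcted libraries 1 to 4. Every infarcted library was lower than every sham library, and infarcted replicate 4 was the lowest. The log2 fold change was -1.27 (SE 0.27, adjusted p = 0.00210). Cat had 363, 319, 329 and 336 CPM in the sham libraries and 182, 203, 178 and 143 CPM after infarction. Its groups were also apart, again with replicate 4 the lowest. Cat thus changed by -0.93 in log2 (SE 0.15, adjusted p = 0.000317). Groups that did not overlap were found for these 2 of the 10 genes and for 47.3% of all genes tested. The cardiomyocyte markers fell in the same comparison, 9 of 12 called lower with a median log2 fold change of -1.10, and infarcted replicate 4 had their lowest sum. Their part in the falls of Sod2 and Cat was not tested.

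Gclm had 27.4, 22.1, 30.1 and 24.6 CPM in the sham libraries and 23.5, 20.5, 16.7 and 18.4 CPM after infarction. The groups overlapped between the lowest sham and the highest infarcted library. For Gclm the log2 fold change was -0.40 (SE 0.16, adjusted p = 0.0487), and the call was lost under 14 of 22 other ways of processing. Gclc, its catalytic partner, was at 16.0 to 22.5 CPM in the sham hearts and 20.4 to 21.7 CPM after infarction, with a log2 fold change of 0.15 (SE 0.12, adjusted p = 0.340). The ratio of Gclm to Gclc counts had a median of 1.33 in the sham hearts (1.09 to 1.88) and 0.925 after infarction (0.812 to 1.12).

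Hmox1, the inducible haem oxygenase, had 17.1, 51.0, 19.9 and 36.4 CPM in the sham libraries and 41.4, 27.3, 38.2 and 121 CPM after infarction. A single infarcted library, replicate 4, was above all sham libraries, and the others lay within the sham range. Its log2 fold change of 0.87 (SE 0.45, adjusted p = 0.128) was not called, and it was 0.14 without that library. The same library had the highest summed level of macrophage markers (3429 CPM), of neutrophil markers (143 CPM, against at most 21.5 CPM in the other infarcted control-vector libraries) and of erythroid markers (1067 CPM). Within its group it was also the highest for fibroblast (41563 CPM), vascular mural (1695 CPM) and lymphocyte markers (23.4 CPM). For cardiomyocyte (28354 CPM) and endothelial markers (1546 CPM) it was the lowest. The neutrophil markers Ly6g and Camp had no counts in this group. The part of these cells in the Hmox1 level was not tested. Hmox2, the constitutive haem oxygenase, was at 34.7 ± 2.52 CPM in the sham hearts and 34.4 ± 7.80 CPM after infarction (SD, n = 4).

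The remaining tested genes did not pass the threshold in this comparison. Nfe2l2 was at 68.6 to 82.6 CPM in the sham hearts and 58.7 to 76.0 CPM after infarction, with a log2 fold change of -0.11 (SE 0.11). Nqo1, which reduces quinones, was at 31.4 to 35.2 CPM and 16.2 to 35.5 CPM, with a log2 fold change of -0.23 (SE 0.21). Txnrd1, the cytosolic thioredoxin reductase, was at 75.5 to 94.1 CPM and 73.4 to 94.8 CPM, with a log2 fold change of 0.00 (SE 0.13). Gpx4 was at 471 to 567 CPM and 330.4 to 499 CPM, with a log2 fold change of -0.22 (SE 0.20). Txnrd2, the mitochondrial thioredoxin reductase and no member of the 10, fell from 63.9 ± 9.35 to 31.8 ± 5.34 CPM (SD, n = 4), a log2 fold change of -1.01 (adjusted p = 0.000562). The ratio of Txnrd1 to Txnrd2 counts moved from a median of 1.31 to 2.56.

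The second comparison asked what AAV9-Irx3 changed in infarcted hearts. Gclm and Nqo1 were higher and Hmox1 was lower with AAV9-Irx3, while Nfe2l2 itself, Gclc, Txnrd1, Sod2, Cat and Gpx4 were not called. These 2 rises and 1 fall among 9 tested genes stood beside 25.2% of all genes called higher and 24.1% called lower (edgeR quasi-likelihood test). The median log2 fold change of the 9 was 0.03, against 0.00 over all genes. None of the 3 calls held when the counts were corrected for the GC content of whole transcripts.

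That correction matters here because the fold changes followed GC content, the share of G and C bases in a gene's longest transcript. Across 15182 genes with a known GC content, the rank correlation of log2 fold change with GC content was -0.664 for AAV9-Irx3 against control vector and 0.040 for infarction against sham. Genes are not independent replicates, and the value is a description. Genes rich in A and T were on the whole higher and genes rich in G and C lower with AAV9-Irx3. After a spline on GC content was taken out of each library, 12.9% of genes were called higher and 12.2% lower, and 0 of the 9 were called in either direction. With the same correction, infarction against sham gave 30.5% of genes called higher and 22.4% lower, and Sod2 (-1.23, adjusted p = 0.00129) and Cat (-0.84, adjusted p = 0.000212) kept their calls. Uncorrected and corrected log2 fold changes with AAV9-Irx3 against control vector are therefore given side by side, and the choice between them was not tested.

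**Figure D2:**
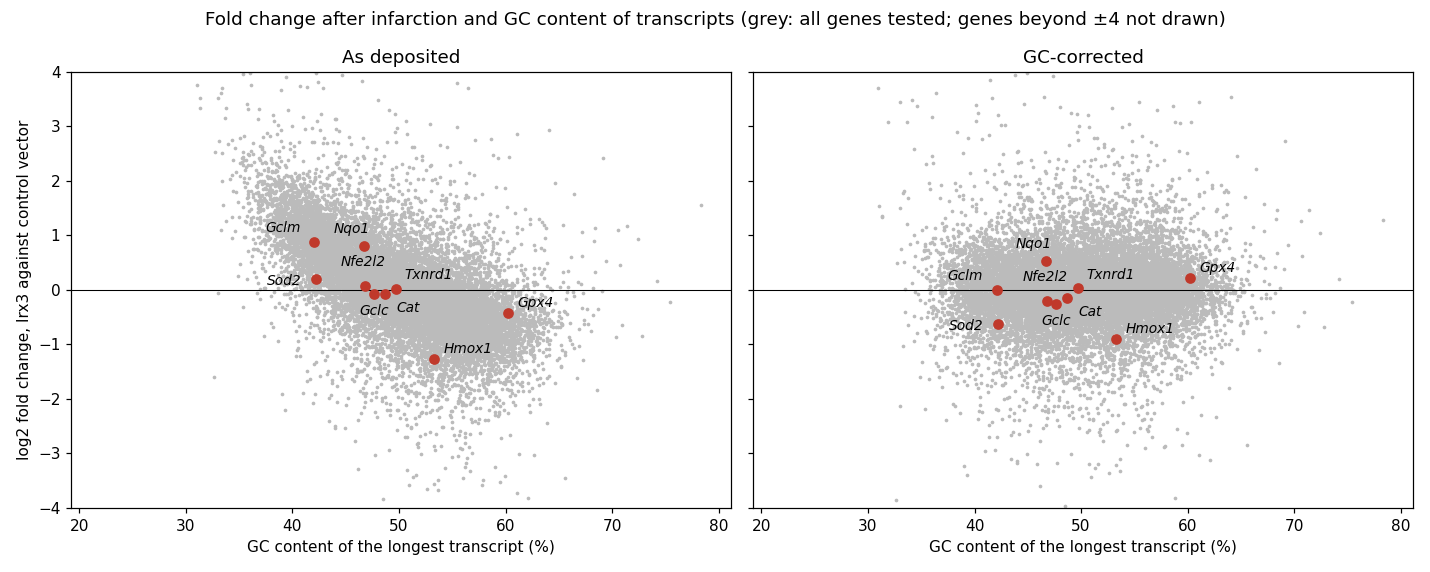
Log2 fold change with AAV9-Irx3 against control vector after infarction (vertical) against the GC content of the longest transcript in percent (horizontal), before (left) and after (right) the correction. Grey points are all genes with a known GC content and red points the 9 genes. Gclm, at 42.1% GC, moved from 0.89 to 0.00 and Gpx4, at 60.2% GC, from -0.42 to 0.22, whereas Nqo1, at 46.7% GC, moved from 0.80 to 0.52.

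Gclm had 34.3, 29.2, 38.1 and 44.8 CPM in libraries 1 to 4 with AAV9-Irx3, after 23.5, 20.5, 16.7 and 18.4 CPM with control vector. Every AAV9-Irx3 library was above every control-vector library, and Gclm was the 1 gene of the 10 whose groups did not overlap in either direction, beside 41.0% of all genes tested. The log2 fold change of Gclm was 0.89 (SE 0.16, adjusted p = 0.000557), and it kept its call whichever library was left out. Corrected for the GC content of the whole transcript, the group means were 25.1 ± 3.34 and 25.0 ± 5.63 CPM (SD, n = 4), and the log2 fold change was 0.00 (adjusted p = 0.988). Its coding sequence had a GC content of 50.4%, against 42.1% for the whole transcript. Corrected for the GC content of the coding sequence, an alternative chosen after seeing the data, the log2 fold change of Gclm was 0.75 (adjusted p = 0.00265). Gclc had 21.9, 18.5, 19.9 and 19.2 CPM with AAV9-Irx3 and 21.0, 21.7, 20.6 and 20.4 CPM with control vector, which overlapped. Its log2 fold change was -0.07 (SE 0.12, adjusted p = 0.648), and -0.26 (adjusted p = 0.106) after the correction for whole transcripts. In uncorrected counts, the ratio of Gclm to Gclc was 1.56 to 2.34 with AAV9-Irx3, above the 0.812 to 1.12 of the control vector. This ratio carries the GC trend of both genes and was not computed from corrected values. Corrected for whole transcripts, Gclc was at 18.9 ± 1.81 CPM with AAV9-Irx3 and 22.5 ± 1.02 CPM with control vector (SD, n = 4).

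Nqo1 had 35.3, 57.8, 45.5 and 57.7 CPM with AAV9-Irx3 and 28.4, 35.5, 32.97 and 16.2 CPM with control vector. The groups overlapped by a narrow margin, AAV9-Irx3 replicate 1 lying just below control-vector replicate 2, and control-vector replicate 4 was the lowest. AAV9-Irx3 replicate 1 and control-vector replicate 4 also had the lowest summed cardiomyocyte markers of their groups, at 34279 and 28354 CPM. The part of this in the Nqo1 level was not tested. Nqo1 had a log2 fold change of 0.80 (SE 0.22, adjusted p = 0.00804), which was 0.61 (adjusted p = 0.00716) without control-vector replicate 4. It was 0.52 (adjusted p = 0.0591) once corrected for whole-transcript GC content and 0.63 (adjusted p = 0.0248) after correction for that of the coding sequence. With the correction for whole transcripts, the call came back in 2 of the 8 fits that left out a library of these groups.

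Hmox1 had 36.4, 17.7, 21.0 and 19.5 CPM with AAV9-Irx3 against 41.4, 27.3, 38.2 and 121 CPM with control vector. Control-vector replicate 4 was far above the rest, and AAV9-Irx3 replicate 1 lay within the control-vector range. For Hmox1 this gave a log2 fold change of -1.26 (SE 0.46, adjusted p = 0.0349), but -0.58 (adjusted p = 0.222) without control-vector replicate 4 and -0.90 (adjusted p = 0.163) after the correction for whole transcripts. The call was kept in 4 of the 8 fits that left out a library and lost under 12 of 22 other ways of processing. The macrophage and monocyte markers stood at 5 called lower and 1 called higher of 16 in the same comparison, and 0 of 16 after the correction. Over all genes tested, 24.1% were called lower and 25.2% higher before the correction, and 12.2% and 12.9% after it. The part of macrophages and monocytes in the Hmox1 level was not tested.

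Gpx4 had 237, 348, 268 and 436 CPM with AAV9-Irx3 and 468, 429, 499 and 330.4 CPM with control vector. The groups overlapped because replicate 4 was the highest AAV9-Irx3 library and the lowest control-vector library. Gpx4 had a log2 fold change of -0.42 (SE 0.20, adjusted p = 0.0921). It passed the threshold without control-vector replicate 4 (-0.53, adjusted p = 0.0335), without AAV9-Irx3 replicate 4 (-0.61, adjusted p = 0.0183) and without both (-0.71, adjusted p = 0.00319). After the correction for whole transcripts, it was 0.22 (adjusted p = 0.475) with all libraries and -0.13 (adjusted p = 0.493) without both, and after that for coding sequences it was 0.085 (adjusted p = 0.780). The direction of Gpx4 thus turned with the processing.

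Sod2 had 213, 293, 205 and 459 CPM with AAV9-Irx3 and 280.4, 337, 253 and 150.1 CPM with control vector. The groups overlapped, with replicate 4 the highest of one group and the lowest of the other. In both groups replicate 4 also stood at the same end of the summed cardiomyocyte markers, at 65193 CPM with AAV9-Irx3 and 28354 CPM with control vector, and the part of this in the Sod2 level was not tested. The log2 fold change of Sod2 was 0.20 (SE 0.27, adjusted p = 0.566), -0.63 (adjusted p = 0.0771) after the correction for whole transcripts and 0.41 (adjusted p = 0.262) after that for coding sequences. Without both of these libraries it was -0.29 (adjusted p = 0.164), and with the correction for whole transcripts as well it was -1.03 (adjusted p = 0.00158). The direction of Sod2 in this comparison therefore turned with the processing. Cat had 131, 177, 166 and 199 CPM with AAV9-Irx3, overlapping its control-vector libraries. Its log2 fold change was -0.07 (SE 0.15, adjusted p = 0.717), and -0.15 (adjusted p = 0.404) after the correction for whole transcripts.

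Nfe2l2 had 76.4, 67.6, 75.1 and 76.5 CPM with AAV9-Irx3 and 58.7, 75.0, 76.0 and 71.1 CPM with control vector. The groups overlapped almost fully. The log2 fold change of Nfe2l2 was 0.07 (SE 0.11, adjusted p = 0.594), -0.21 (adjusted p = 0.127) after the correction for whole transcripts and -0.29 (adjusted p = 0.0381) after that for coding sequences. Keap1, which encodes the protein that holds NRF2 back, was at 98.2 ± 20.4 CPM with control vector and 58.7 ± 5.51 CPM with AAV9-Irx3 (SD, n = 4), a log2 fold change of -0.74 (adjusted p = 0.00269) that was -0.10 (adjusted p = 0.568) after the correction. Txnrd1 had 93.1, 79.3, 75.4 and 99.4 CPM with AAV9-Irx3 and 94.4, 78.6, 73.4 and 94.8 CPM with control vector, which spanned the same range. Its log2 fold change was 0.03 (SE 0.13) and 0.04 after the correction.

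**Figure D3:**
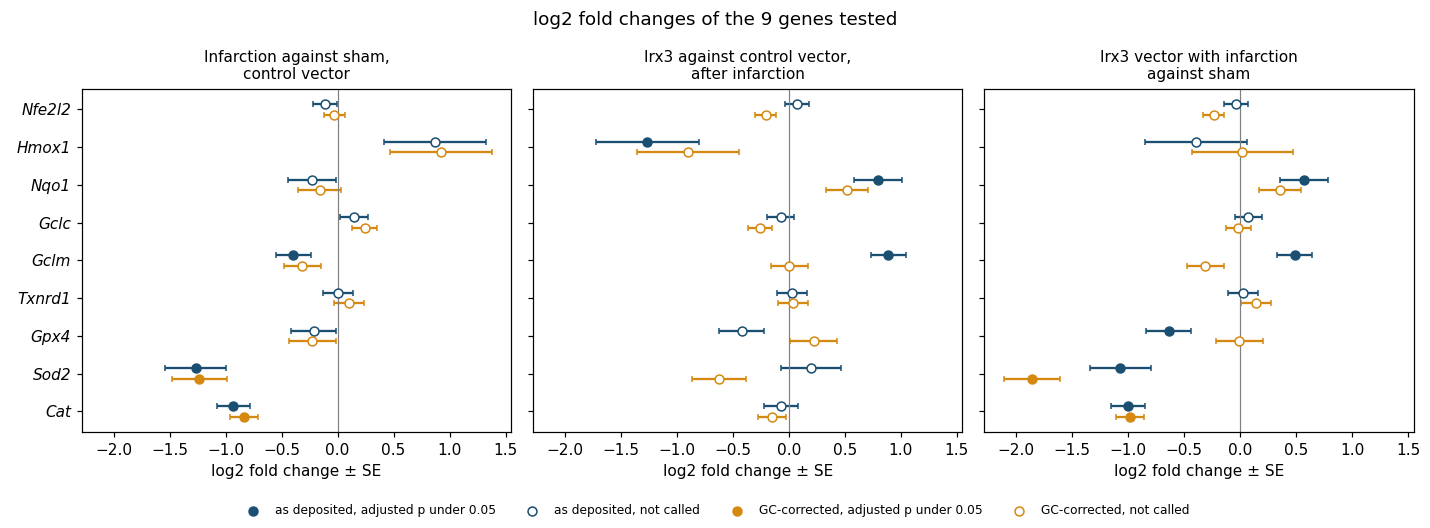
Log2 fold changes (horizontal, with SE) of the 9 tested genes in the 3 comparisons, with the deposited counts (blue) and with the whole-transcript GC correction (orange). Filled points passed an adjusted p under 0.05. Sod2 and Cat are filled in both versions of both comparisons with sham, whereas no orange point is filled for AAV9-Irx3 against control vector.

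Slc7a11, the cystine importer whose block is a classic trigger of ferroptosis, was detected at very few reads. The sham libraries 1 to 4 had 0, 3, 3 and 0 counts, the infarcted control-vector libraries 0, 4, 7 and 63, and the AAV9-Irx3 libraries 226, 18, 9 and 3. Control-vector replicate 4 and AAV9-Irx3 replicate 1 held most of the reads of their groups, and without them 11 and 30 counts remained over the other 3 libraries of each group. In CPM these 2 libraries stood at 3.25 and 11.2, the others of their groups at 0.00 to 0.399 and 0.228 to 0.862, and the sham libraries at 0.00 to 0.205. With no filter on low counts, the adjusted p was 0.312 for infarction, 0.427 for AAV9-Irx3 after infarction and 0.0826 for AAV9-Irx3 with infarction against sham. The same 2 libraries had the highest sums of neutrophil markers of their groups, 143 and 55.0 CPM, and of macrophage markers, 3429 and 2438 CPM. The neutrophil markers Ly6g and Camp had no counts in the infarcted control-vector group. These libraries were also the highest of their groups for fibroblast markers (41563 and 26568 CPM) and vascular mural markers (1695 and 1221 CPM). They were the lowest for cardiomyocyte markers (28354 and 34279 CPM) and endothelial markers (1546 and 1354 CPM). The part of these cells in the Slc7a11 reads was not tested.

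The third comparison set AAV9-Irx3 with infarction against sham with control vector. It differs in both surgery and vector and shares its libraries with the other comparisons, so it is no separate evidence. Gclm and Nqo1 were called higher and Gpx4, Sod2 and Cat lower, beside 35.2% of all genes called higher and 27.7% lower (edgeR quasi-likelihood test). The median over all genes was itself shifted to 0.12 in log2, and that of the 9 was -0.04. After the correction for whole transcripts, only Sod2 and Cat remained among the 9, with 32.8% of all genes called higher and 21.4% lower.

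All 4 AAV9-Irx3 libraries were below all sham libraries for Sod2, Cat and Gpx4 and above them for Nqo1. For Nqo1 the lowest of them was at 35.3 CPM against a highest sham library of 35.2 CPM. Slc7a11 was apart by library scaling alone. Its lowest AAV9-Irx3 library had 3 counts (0.228 CPM) and its highest sham library also 3 (0.205 CPM). With Slc7a11, which was not tested, these are 5 of the 10 genes, beside 60.8% of all genes tested. Sod2 had a log2 fold change of -1.07 (SE 0.27, adjusted p = 0.00399) and of -1.86 (adjusted p = 8.77e-05) after the correction for whole transcripts. Cat had -1.003 (SE 0.15, adjusted p = 9.08e-05) and -0.99 (adjusted p = 5.97e-05). Over 22 other ways of processing, Sod2 ranged from -2.12 to -0.80 and Cat from -1.10 to -0.89, called lower in every one.

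The other 3 calls were lost with the correction. Gpx4 changed from -0.64 (SE 0.20, adjusted p = 0.0128) to -0.01 (adjusted p = 0.983). Nqo1 changed from 0.57 (SE 0.22, adjusted p = 0.0336) to 0.36 (adjusted p = 0.123). Gclm changed from 0.49 (SE 0.16, adjusted p = 0.0140) to -0.31 (adjusted p = 0.126). With the GC content of coding sequences in its place, Gclm was at 0.47 (adjusted p = 0.0175), Nqo1 at 0.49 (adjusted p = 0.0434) and Gpx4 at -0.10 (adjusted p = 0.700). Hmox1 (-0.39, SE 0.45), Nfe2l2 (-0.04, SE 0.11), Gclc (0.07, SE 0.12) and Txnrd1 (0.03, SE 0.13) did not pass the threshold. With the correction for coding sequences, Nfe2l2 was called lower (-0.32, adjusted p = 0.0136). Leaving out each of the 8 libraries in turn, without correction, kept the call of Gclm in 6 fits and that of Nqo1 in 1.

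The wider pathway was read in 9 lists of 186 other genes in all, of which 168 were tested. After infarction with control vector, 53 of them were higher and 55 lower, with a median log2 fold change of -0.13. Over all genes tested, 26.3% were higher and 22.4% lower, with a median of 0.01. In the list of dismutases, peroxidases and related genes outside the 10, 8 of 11 rose and 2 fell. The related genes of this list were Ccs, Selenow, Selenop, Pon2 and Park7. The secreted peroxidase gene Gpx3 rose from 256 ± 44.2 to 843 ± 307 CPM (log2 fold change 1.72, adjusted p = 0.000265), and Sod1, the cytosolic superoxide dismutase, fell from 310.4 ± 39.5 to 201 ± 20.2 CPM (-0.62, adjusted p = 0.00504). Among oxidant sources, 8 of 15 rose and 2 fell. The NADPH oxidase genes Nox4 (log2 fold change 5.71, adjusted p = 2.53e-05) and Cybb (3.22, adjusted p = 3.75e-05) led the rises, and Maob, a mitochondrial monoamine oxidase, fell (-1.28, adjusted p = 0.00185). Nox4 had few reads in the sham hearts, 34 counts in all at 0.568 ± 0.176 CPM, and 30.3 ± 6.80 CPM after infarction (SD, n = 4). Cybb is also a phagocyte gene, and all 16 macrophage markers rose in this comparison, as did all 12 fibroblast markers. The part of these cells in the rises of Cybb and Nox4 was not tested.

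In the glutathione list, 10 of 22 genes fell and 2 rose after infarction. Cth, which makes cysteine from cystathionine, fell from 4.28 ± 1.18 to 0.413 ± 0.366 CPM (log2 fold change -3.35, adjusted p = 0.000158), and Gstk1, a mitochondrial and peroxisomal glutathione transferase, fell from 68.5 ± 4.17 to 16.7 ± 7.89 CPM (-2.04, adjusted p = 0.000528). Slc3a2, the heavy chain that partners SLC7A11, rose from 74.4 ± 16.1 to 111 ± 21.3 CPM (0.58, adjusted p = 0.0116). Of 29 other NRF2 targets, 14 rose and 8 fell. Ephx1, a microsomal epoxide hydrolase, rose (1.47, adjusted p = 0.000122), and the glutathione transferase gene Gstm1 fell (-0.98, adjusted p = 0.000971). Of 17 thioredoxin and peroxiredoxin genes 5 rose and 9 fell, of 18 haem genes 3 rose and 8 fell, and of 23 iron genes 5 rose and 5 fell, the last near the shares over all genes (26.3% higher and 22.4% lower). Slc40a1, the iron exporter ferroportin, fell (-1.58, adjusted p = 0.000101). Of 28 genes listed for ferroptosis, only a part of them of lipid metabolism, 10 rose and 8 fell. Sat1, a polyamine acetyltransferase, was higher (1.52, adjusted p = 2.92e-05) and Aifm2, which encodes the ubiquinone reductase FSP1, lower (-0.77, adjusted p = 0.00176). Of 14 NRF2 regulators, 2 rose and 4 fell.

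**Figure D4:**
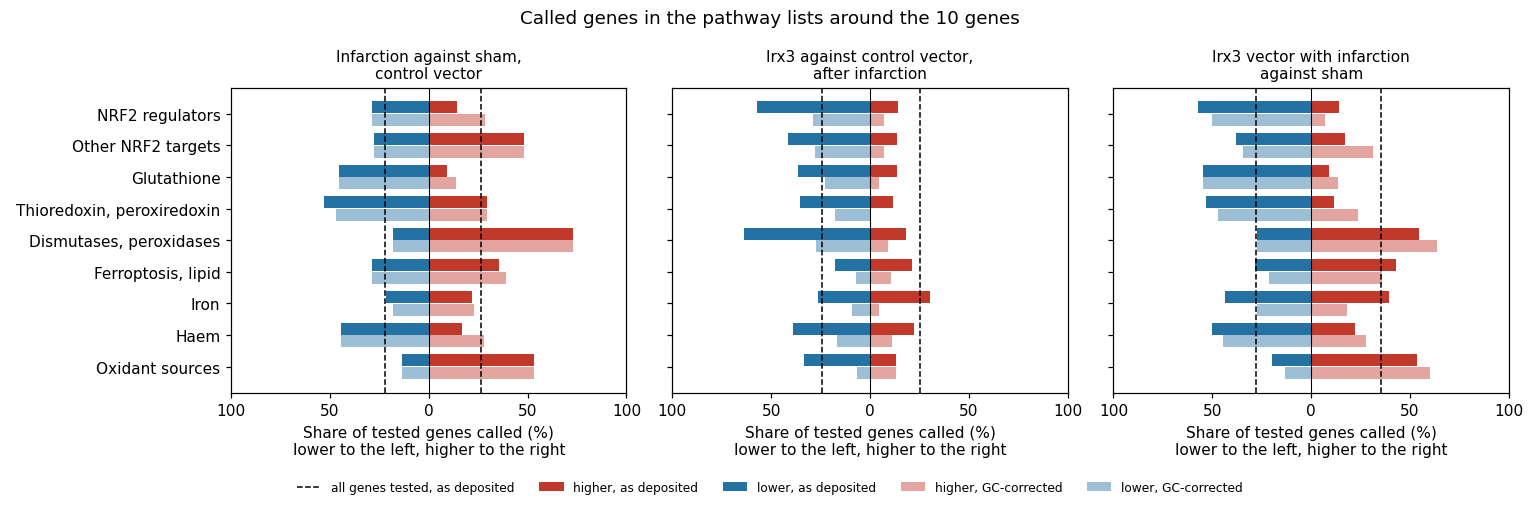
Share of the tested genes of each pathway list called higher (red, to the right) or lower (blue, to the left), in percent, for the 3 comparisons, with the deposited counts (dark) and with the whole-transcript GC correction (light). Dashed lines give the shares over all genes tested as deposited, such as 26.3% higher and 22.4% lower for infarction. The list of dismutases and peroxidases, which also holds related genes, reaches furthest to the right after infarction, with 8 of 11 genes. The light bars are mostly shorter than the dark ones for AAV9-Irx3 against control vector.

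With AAV9-Irx3 against control vector after infarction, 31 of the 168 pathway genes were higher and 61 lower, and 13 and 29 after the correction for whole transcripts. Over all genes tested, 25.2% were higher and 24.1% lower before the correction and 12.9% and 12.2% after it. Txnip, which encodes the inhibitor of thioredoxin, fell from 904 ± 144 to 272 ± 57.7 CPM (log2 fold change -1.73, adjusted p = 4.14e-05) and stayed at -1.85 after the correction. Chac1, which degrades glutathione, fell from 20.3 ± 5.39 to 3.68 ± 1.44 CPM (-2.45, adjusted p = 3.23e-05), and was at -1.85 after it. The small MAF partner genes of NRF2 Maff and Mafk fell by 1.48 and 1.35 on the log2 scale, and by 0.85 and 0.80 after it. The third, Mafg, fell by 0.58 (adjusted p = 0.000880) before the correction and was at -0.13 (adjusted p = 0.375) after it. Aldh3a1, an aldehyde dehydrogenase, fell from 5.11 ± 1.89 to 0.413 ± 0.248 CPM (-3.56, adjusted p = 8.74e-05) and was at -3.21 (adjusted p = 0.000528) after it. Tfrc, the transferrin receptor, rose from 9.27 ± 8.32 to 59.5 ± 32.5 CPM (2.69, adjusted p = 0.00101) and was at 1.67 (adjusted p = 0.0163) after it. Acsl4, which activates polyunsaturated fatty acids for use in lipids that are substrates of ferroptosis, rose from 13.2 ± 1.33 to 31.1 ± 3.48 CPM (1.23, adjusted p = 8.87e-05), but was at -0.06 (adjusted p = 0.845) after it. Cul3, the ligase partner of KEAP1, likewise was at 1.52 (adjusted p = 0.000129) before and 0.24 (adjusted p = 0.125) after.

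The genes whose log2 levels followed each of the tested genes most closely across the 12 libraries were listed as a description. The libraries share 3 groups, so such correlations carry the group differences. The levels were not corrected for GC content, so the correlations can also carry the trend with GC content. Sod2 was closest to Cs, which encodes citrate synthase of the mitochondrial citric acid cycle (Pearson r = 0.995), and Cat to Ivd, a mitochondrial dehydrogenase of leucine breakdown (0.992). Gpx4 was closest to Timm10, of mitochondrial protein import (0.985). Gclm was closest to Lysmd3 (0.937), Nqo1 to 1110032A03Rik (0.977) and Hmox1 to Ripk3, a kinase of necroptosis (0.904). The closest genes to Txnrd1 (Plxnd1, 0.814), Gclc (Trim2, 0.779) and Nfe2l2 (Wdr82, 0.764) followed them less closely.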

How the data were processed

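Messenger RNA of 12 mouse left ventricles, 1 library each, was measured as raw read counts per gene. The authors deposited these counts after trimming reads with fastp and mapping to GRCm39, per the submitters' processing notes. Aligner, counter, annotation and strandedness: not given in the sources used here. Totals were 13352604 to 19236721 counts per library. Groups came from the labels, replicates of a group all differed beyond counting noise (lowest chi-square per gene 7.31), and p-values measure the spread between 4 mice per group. The members and gene lists were chosen with earlier results of these data known.

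The robust quasi-likelihood test of edgeR 4.0.16 (R 4.3.3) used TMM factors, filterByExpr by group with 15742 genes passing, and 1 term per group over all 12 libraries with 9 residual degrees of freedom. P-values were adjusted by Benjamini and Hochberg across the tested genes, and 0.05 was the threshold for a call. For the GC correction, a spline (6 degrees of freedom, 3 robust rounds) of each library's deviation in log2 CPM on GC content was used as an offset. GC content, lengths and coding sequences were those of GENCODE M21 on GRCm38, joined by symbol, and covered 15182 tested genes (96.4%). In that annotation Nfe2l2, Gclm, Txnrd1 and Slc7a11 overlap other genes and Gpx4 has a pseudogene named after it, so shared reads may be in or missing from their counts.

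Other settings were RLE and upper-quartile factors, DESeq2 1.42.0, no filter or CPM 1 in 4 libraries, only the 2 groups compared, mitochondrial genes removed, a replicate block, the GC correction, each library left out, and replicate 4 of both infarcted groups left out. Added after seeing the data were GC content of coding sequences, leaving out the 2 libraries with most Slc7a11 counts, and the GC correction with each infarcted library left out. Named genes were the members, Irx3, up to 3 called genes with the smallest p per list, comparison and direction, and the genes most correlated with each member, of which a part is printed. Keap1, Txnrd2 and Hmox2 were also named as partners of members, and where the rule did not give them they were chosen after their values were seen.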

Additional observations from a re-analysis of the deposited data

Results flagged for a closer look

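In 5 of the 30 sets checked (10 genes in 3 groups of 4 libraries), 1 library of a member stood apart from the other 3, with a gap to its nearest neighbour above Dixon's 95% critical share of the range of the group. Chance alone gives this in about 1 in 20 groups, and 2 of the 5 were Slc7a11, which had few counts. Hmox1 was at 121 CPM in replicate 4 of infarction with control vector, above 27.3 to 41.4 CPM in the others. Slc7a11 was at 3.25 CPM in that same library and at 11.2 CPM in replicate 1 with AAV9-Irx3. Gpx4 was at 567 CPM in sham replicate 3, against 471 to 486 CPM in the other sham libraries. Nfe2l2 was at 67.6 CPM in replicate 2 with AAV9-Irx3, against 75.1 to 76.5 CPM in the others.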

How the results depend on the processing

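Across 22 alternatives per comparison, Sod2 and Cat were called lower in every one for infarction against sham (log2 fold changes of -1.49 to -1.08 and -1.06 to -0.76). For AAV9-Irx3 against control vector, the count of the 9 genes called lower was 0 in place of 1 with no filter, with the GC correction, with the replicate block and with both, and without the 2 libraries richest in Slc7a11. The count called higher was 0 in place of 2 with the GC correction, alone, with the replicate block, or without replicate 4 of both infarcted groups. Leaving out single libraries gave 0 to 1 called lower, with 0 without AAV9-Irx3 replicate 2 or 3. Without control-vector replicate 4 or AAV9-Irx3 replicate 4, the 1 gene called lower was Gpx4 and not Hmox1. In AAV9-Irx3 against sham, the count called higher was 1 in place of 2 with DESeq2 and with the replicate block, and 0 with the GC correction in those same 3 settings, while leaving out single libraries gave 1 to 2 where Slc7a11 was counted whenever it passed the filter. Over the 9 genes alone, those fits gave 0 to 2, with 0 without sham replicate 2 or AAV9-Irx3 replicate 3, 2 without AAV9-Irx3 replicate 1, and 1 without any of the other libraries. Over all genes, AAV9-Irx3 against control vector gave 3965 higher and 3795 lower as deposited, 1964 and 1852 with the GC correction, 1368 and 1277 with the replicate block as well, 1755 and 1783 with the correction and without replicate 4 of both groups, and 2330 and 2290 with the correction by coding sequence. AAV9-Irx3 against sham gave 4359 lower, and 2881 with the replicate block and the correction. Signs turned, from or into a called value, for Gclm in AAV9-Irx3 against control vector (-0.046) and Sod2 (-1.03) with the correction and without replicate 4 of both groups, for Nfe2l2 (-0.29) with the correction by coding sequence, and for Gclm against sham with the correction alone (-0.31), with the replicate block (-0.32) and without replicate 4 of both groups (-0.39). Values that were called neither before nor after changed sign too, among them Gpx4 (0.22), Sod2 (-0.63) and Nfe2l2 (-0.21) in AAV9-Irx3 against control vector and Hmox1 (0.022) in AAV9-Irx3 against sham, all with the correction alone. The causes of these changes were not tested beyond the settings themselves. The replicate numbers did not pair the libraries. Same-numbered libraries had residual correlations of -0.421 to 0.097 over 12 pairs, and 0 libraries correlated best with their own number. Slc7a11 passed the filter in some settings, with adjusted p for AAV9-Irx3 against sham of 0.0164 with mitochondrial genes removed and 0.0130 to 0.0501 when a library was left out, but it failed the filter without AAV9-Irx3 replicate 1 or 2. Depth limits Slc7a11, with 6 counts in all over the sham libraries.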
